A study of Mus musculus with 8 samples.

Results

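The Zbtb genes encode transcription factors with a BTB domain at one end and zinc fingers at the other, and their intervals of Bcl11b binding are described here with those of the related genes Bcl6 and Bach2. Members were the protein-coding genes of the mm10 RefSeq annotation whose symbol starts with Zbtb and a digit, plus Bcl6 and Bach2, without Zbtb7b and Zbtb16. An interval belonged to a member when that gene's body was the nearest protein-coding one, within 100 kb of the interval's midpoint. This gave 41 genes with 276 of the 93708 deposited intervals, each 201 bp long, and 189 of the 63098 intervals with enough reads to be tested; the other 87 were too weak. All 41 genes had at least 1 tested interval, with a median of 4 per gene, and Bach2 alone held 31. Zbtb8os is a member by its symbol only: it lies on the opposite strand beside Zbtb8a and does not encode a BTB zinc finger protein.

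Bcl11b, a zinc finger factor of the T cell lineage, was precipitated from cross-linked, freshly isolated mouse thymocytes, and the bound DNA was sequenced (ChIP-seq). Thymocytes of 2 genotypes were compared, Bcl11b+/+ (wild type) and Bcl11b+/N440K, which carries 1 wild type allele and 1 allele with an amino acid exchange, with 3 ChIP libraries each. The comparison asks at which sites binding differed. Age, strain and sex of the mice, and whether the antibody binds both forms of the protein alike, are not given in the sources used here. Whether the libraries came from separate animals is not given either, so the p-values speak only for the spread among these libraries, and that spread may be technical.

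BTB zinc finger proteins bind DNA through their zinc fingers and form dimers through the BTB domain, which also recruits corepressors such as NCOR and BCOR with histone deacetylases, or the ubiquitin ligase scaffold CUL3. Many act as repressors, and several set the fate of lymphocytes. BCL6 directs germinal centre B cells and follicular helper T cells. BACH2, a BTB protein without zinc fingers, pairs with small Maf proteins and holds back effector programmes in B and T cells. Binding near a gene is not expression of that gene, and neither RNA nor protein of the members was measured here.

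Counts in intervals totalled 1787899, 2661343 and 2579988 for wild type and 1997125, 1812952 and 2123877 for N440K. Values are given as CPM, counts scaled to a common library size,, and because the scaling sets the typical change to about 0, binding that rose or fell everywhere would not show. Input DNA (2 wild type libraries) was not used here, and signal therefore stands without a background level. Thymocytes were not described as sorted, and a change in the share of cells with binding cannot be told apart from a change in binding per cell. As a check of the tissue, all 9 thymocyte marker genes (such as Cd4, Rag1 and Tcf7) had tested intervals, 75 in all, up to 188 CPM. Of the markers of other cells, 4 of 5 B cell genes held 16 tested intervals, 1 of 5 myeloid genes 13, 2 of 5 thymic epithelial genes 11 and 2 of 4 erythroid genes 5, the strongest at 52.2 CPM in a myeloid gene.

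Many of the strongest member intervals lay at a gene's start, so the DNA just before the start is shown for 5 genes whose interval covered at least 50 of these bases and was among the 10 strongest or had an unadjusted p under 0.05. Each run holds the 250 bases before a transcription start, from the RefSeq promoter table (GRCm38.p6, the coordinates of mm10), 5′ to 3′ on the gene's strand. Capitals mark words that were searched on both strands: TGACCA, a word bound by the paralog BCL11A, TGTGGT, the Runx core, and CCGGAAG, an Ets word.
Zbtb9 (chr17:26972929-26973178, plus strand): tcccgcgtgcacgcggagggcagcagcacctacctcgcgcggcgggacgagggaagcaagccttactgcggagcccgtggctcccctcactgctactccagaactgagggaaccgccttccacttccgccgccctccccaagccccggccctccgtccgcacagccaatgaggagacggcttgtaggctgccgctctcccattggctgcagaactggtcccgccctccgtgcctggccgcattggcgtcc
Zbtb26 (chr2:37443173-37443422, minus strand): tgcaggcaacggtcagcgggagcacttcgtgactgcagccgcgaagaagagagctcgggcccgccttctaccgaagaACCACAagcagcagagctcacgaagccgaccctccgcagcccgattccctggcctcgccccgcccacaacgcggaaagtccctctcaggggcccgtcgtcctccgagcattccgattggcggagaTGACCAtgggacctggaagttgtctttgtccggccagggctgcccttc
Zbtb1 (chr12:76370270-76370519, plus strand): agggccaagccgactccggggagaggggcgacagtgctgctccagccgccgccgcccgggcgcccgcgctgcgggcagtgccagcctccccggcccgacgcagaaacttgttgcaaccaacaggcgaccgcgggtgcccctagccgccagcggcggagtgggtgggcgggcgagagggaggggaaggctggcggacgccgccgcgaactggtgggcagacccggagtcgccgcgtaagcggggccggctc
Zbtb38 (chr9:96719851-96720100, minus strand): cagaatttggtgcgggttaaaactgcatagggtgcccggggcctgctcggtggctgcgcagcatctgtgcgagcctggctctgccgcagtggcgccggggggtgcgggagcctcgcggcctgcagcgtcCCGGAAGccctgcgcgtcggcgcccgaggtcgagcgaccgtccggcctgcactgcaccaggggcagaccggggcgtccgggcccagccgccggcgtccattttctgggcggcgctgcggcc
Zbtb34 (chr2:33431325-33431574, minus strand): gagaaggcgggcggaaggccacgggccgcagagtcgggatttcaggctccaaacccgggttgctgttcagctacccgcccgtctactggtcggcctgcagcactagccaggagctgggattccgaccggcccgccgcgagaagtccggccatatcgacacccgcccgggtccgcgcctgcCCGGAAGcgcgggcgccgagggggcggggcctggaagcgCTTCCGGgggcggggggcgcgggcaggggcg

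These stretches were rich in G and C, from 64.8% in Zbtb26 to 76.4% in Zbtb1. The Zbtb9 and Zbtb1 stretches held none of the 3 words, Zbtb26 held 1 Runx and 1 BCL11A word, Zbtb38 held 1 Ets word and Zbtb34 held 2. Over all listed starts, the table covered 37 of the 41 genes with 50 promoters (Zbtb10, Zbtb40, Zbtb48 and Zbtb7c had no entry). TGACCA was in 6 of the 50 (12.0%) and in 10.5% of 21263 promoters of all protein-coding genes, over the same 250 bases. TGTGGT was in 8 of 50 (16.0%) against 12.4%, and CCGGAAG in 10 of 50 (20%) against 8.98%. Among promoters with a tested interval within 500 bp, CCGGAAG was in 9 of 38 member promoters (23.7%) and in 16.0% of all 10542. The median GC content of these bound promoters was 67.6% for members and 61.2% for all. A match is a description of letters, not a bound site.

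The median tested member interval had 14.1 CPM over the 6 libraries, and the median of all tested intervals was 11.8 CPM. The range was 4.84 to 65.0 CPM, while the strongest interval of all reached 261 CPM. Of the 189, 126 lay inside a gene body (66.7%, against 61.6% of all). For genes with a listed transcription start, the 5′ end of the gene body was counted as a start as well. Of the 177 member intervals of such genes, 60 lay within 500 bp of a start (33.9%, near the 30.1% of all). The share was 11.4% in the lymphoid regulators and 55.9% in the genes without a role group below. Member intervals near a start had a median of 21.3 CPM, beside 9.74 CPM for the other 117. Of the 37 genes with a listed start, 34 had an interval within 500 bp of a listed start or of the body's 5′ end. For 28 the gene's strongest interval was so placed. These shares are descriptions of positions, and neighbouring intervals of a gene are not independent.

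**Figure D1:**
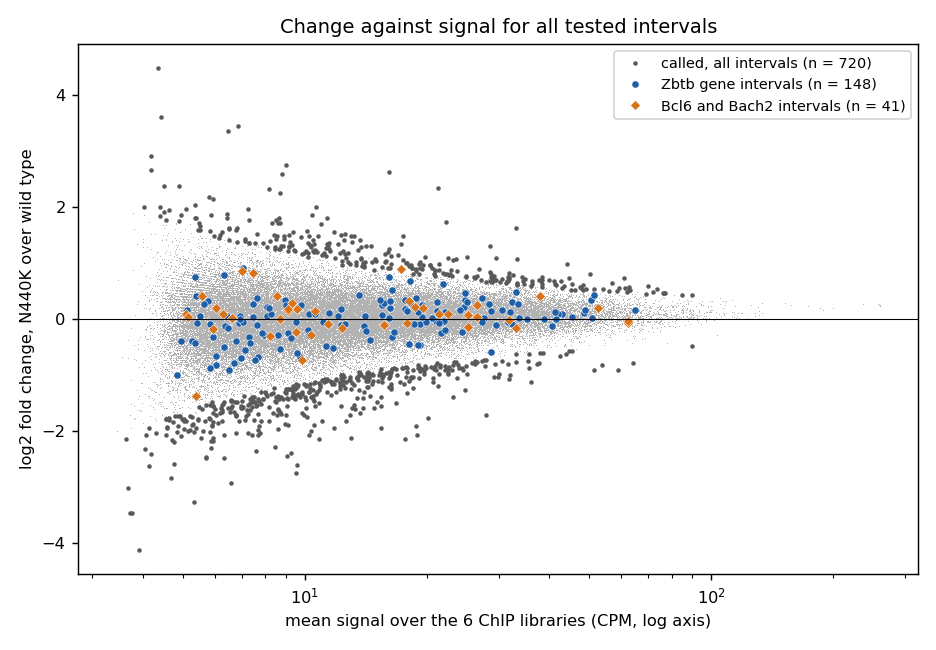
Log2 fold change (N440K over wild type) against mean signal (CPM, log axis) for all 63098 tested intervals (grey), with the 720 called ones darker. The 148 Zbtb intervals (blue circles) and the 41 of Bcl6 and Bach2 (orange diamonds) lie around 0, from -1.37 to 0.92, and none of the 189 was called.

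No member interval differed between the genotypes past the threshold. With edgeR's quasi-likelihood test and Benjamini-Hochberg adjustment over all tested intervals, 0 of 189 had an adjusted p under 0.05, where 1.14% of all tested intervals had. DESeq2 and limma voom also called 0 of the 189, with 0.0951% and 0.504% of all intervals called. At an unadjusted p under 0.05 there were 26 member intervals, 12 lower and 14 higher in N440K thymocytes, which is 13.8% of the members and near the 12.7% of all intervals. All N440K libraries lay below all wild type ones at 17 member intervals (8.95% of all intervals did so) and above them at 16 (8.34% of all). The median log2 fold change of the members was 0.04, and the quartiles were -0.16 and 0.21, beside a median of 0.00 and quartiles of -0.23 and 0.22 over all intervals. The shares and medians of the members thus lay close to those of all intervals. The standard errors (SE) given with each log2 fold change show how precise a single interval was, and 0 calls do not show equal binding.

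Counts summed over all deposited intervals of a gene gave 1 value per gene and library. On this measure 2 of 41 genes were called, Zbtb10 and Zbtb8b, both lower in N440K thymocytes, where edgeR called 3.21% of 14189 genes lower; 0 members were called higher, where 1.54% of all genes were. For 5 of 41 genes, 3 lower and 2 higher in N440K, no wild type and N440K libraries overlapped (21.9% of all genes did not overlap). Log2 fold changes were negative for 16 and positive for 25 genes, with a median of 0.05 beside 0.00 over all genes. The 2 called genes were among the weaker bound ones, and the strongest bound members had nearly equal means in both genotypes.

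**Figure D2:**
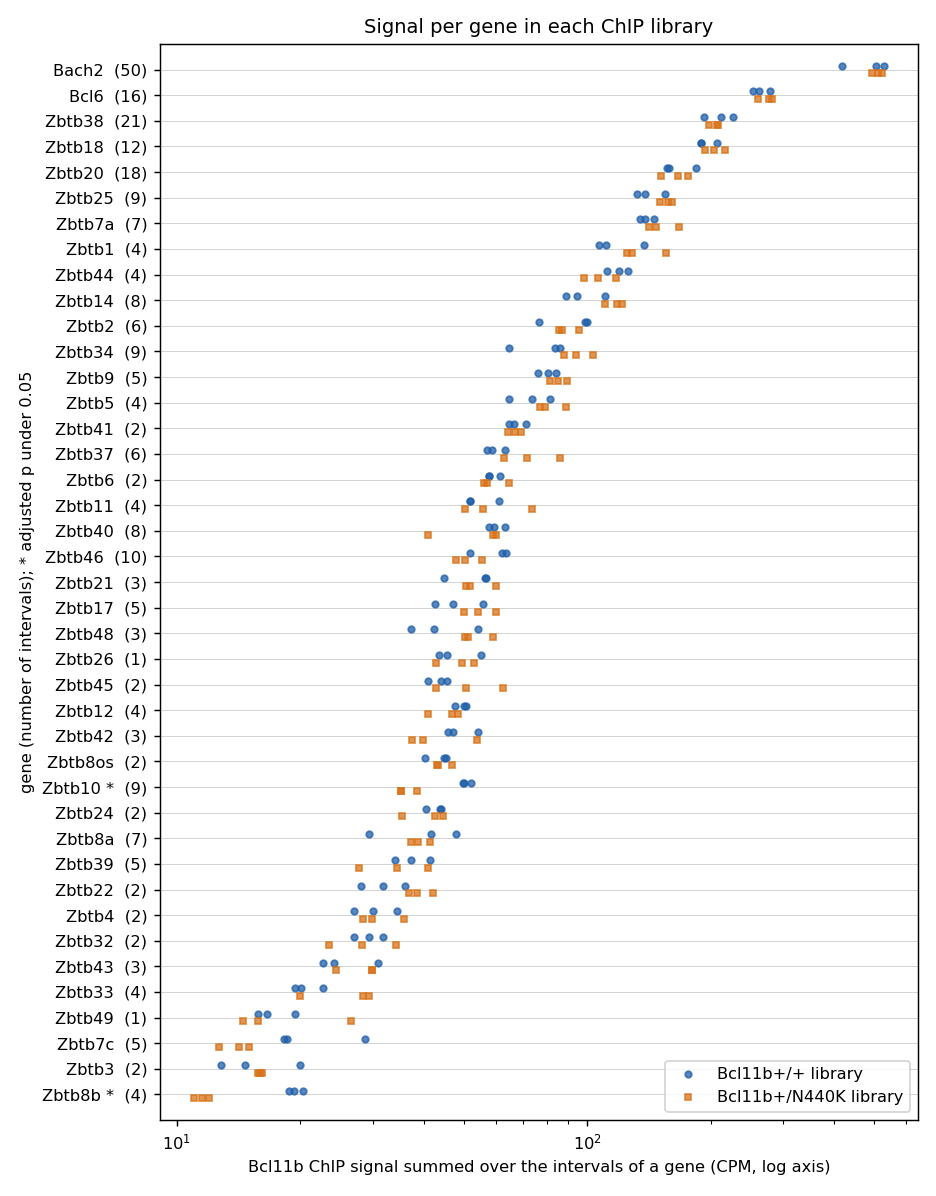
Bcl11b ChIP signal summed over the intervals of each of the 41 genes (CPM, log axis), 1 point per library, wild type as blue circles and N440K as orange squares, with the number of deposited intervals in brackets. Zbtb10 and Zbtb8b, marked with a star, have all 3 N440K libraries below all 3 wild type libraries, while for 36 genes the genotypes overlap.

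The lymphoid regulators, 8 genes, held 70 of the 189 tested intervals and both genes with the highest summed signal. None of the 70 was called; 3 lower and 6 higher ones had an unadjusted p under 0.05, and their median log2 fold change was 0.07. Bach2 had 506, 418 and 529 CPM in wild type and 523, 513 and 495 CPM in N440K over 50 intervals, and ranked 92 of 14189 genes by this sum. Only wild type replicate 2 lay apart, below the other 5, and the genotypes overlapped (log2 fold change 0.08 ± 0.08 SE, edgeR adjusted p = 0.657). Bcl6 had 280, 253 and 263 CPM in wild type and 283, 261 and 277 CPM in N440K over 16 intervals (0.05 ± 0.08 SE, edgeR adjusted p = 0.81). These sums depend on gene length and on how far the nearest gene is, since Bach2 is 348 kb long and Bcl6 23.8 kb.

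Within Bach2 the strongest interval lay in the gene body 19.9 kb past the 5′ end (chromosome 4, 32258197 to 32258397). It had 62.0, 54.8 and 74.3 CPM in wild type and 65.3, 61.0 and 56.7 CPM in N440K, so the genotypes overlapped, and its rank was at percentile 99.1 of all tested intervals. The interval at the gene's 5′ end had 20.6 ± 3.26 CPM in wild type against 22.2 ± 2.83 CPM in N440K (SD, n = 3).

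The smallest p of any Bach2 interval, and of any member interval, belonged to one 74.1 kb outside the gene, before its 5′ end (chromosome 4, 32164206 to 32164406). It had 17.97, 8.23 and 10.7 CPM in wild type and 30.5, 22.6 and 13.5 CPM in N440K. The N440K mean was higher, but wild type replicate 1 lay above N440K replicate 3, and the difference was not called (log2 fold change 0.91 ± 0.26 SE, edgeR adjusted p = 0.0628). Without wild type replicate 1 it was called, with a log2 fold change of 1.21 (edgeR adjusted p = 0.0204), as it was without N440K replicate 3 (1.19, edgeR adjusted p = 0.0113). Without any of the other 4 libraries it was not called, and the log2 fold change was lowest, at 0.60, without N440K replicate 1 (edgeR adjusted p = 0.425). The neighbouring, stronger interval, 73.4 kb outside, had 48.3, 18.9 and 32.2 CPM in wild type and 52.6, 47.0 and 28.1 CPM in N440K (edgeR adjusted p = 0.36). In both intervals wild type replicate 1 was the highest of its genotype and N440K replicate 3 the lowest.

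A weak interval deep in the Bach2 body went the other way and is named because of its value. It lay 125 kb past the 5′ end and had 7.44, 9.06 and 6.87 CPM in wild type and 2.21, 4.27 and 2.60 CPM in N440K. The libraries did not overlap and the log2 fold change was -1.37 ± 0.43 SE, the lowest of all member intervals, but it was not called (edgeR adjusted p = 0.0976). Over all 31 Bach2 intervals, 11 log2 fold changes were negative and 20 positive, with a median of 0.09.

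**Figure D3:**
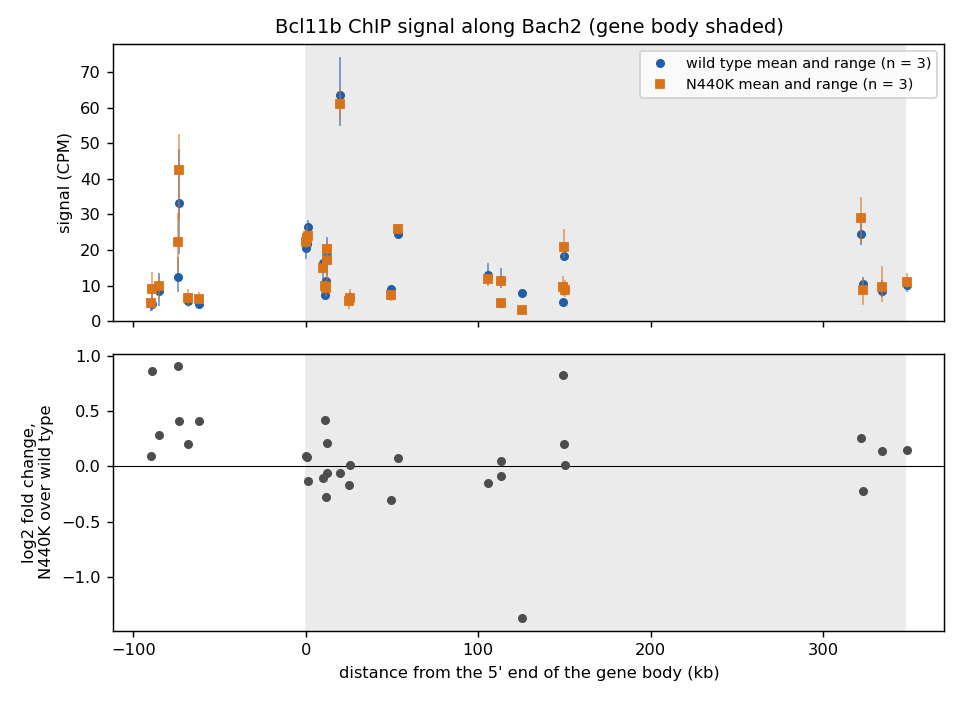
Signal (CPM, top) and log2 fold change (bottom) of the 31 tested Bach2 intervals against their distance from the 5′ end of the gene body (kb, body shaded). Points are means and bars the range of 3 libraries; the strongest interval, 19.9 kb past the 5′ end, has nearly equal means, and the upstream pair near 74 kb has higher N440K means with overlapping ranges.

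Bcl6 had its strongest interval at its start (chromosome 16, 23988483 to 23988683), with 70.0, 57.2 and 62.7 CPM in wild type and 59.8, 60.4 and 64.5 CPM in N440K. A further one inside the body (23985467 to 23985667) had 53.9, 46.9 and 46.8 CPM in wild type and 67.0, 43.3 and 57.8 CPM in N440K. Both overlapped between the genotypes. The Bcl6 interval with the smallest p lay 84.5 kb outside the gene, with 12.4, 9.88 and 14.6 CPM in wild type and 7.75, 4.88 and 9.37 CPM in N440K (log2 fold change -0.72 ± 0.31 SE, edgeR adjusted p = 0.289). The libraries did not overlap there, and it was not called.

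Zbtb1, which lymphocyte development requires, had 138, 111 and 107 CPM in wild type and 125, 156 and 129 CPM in N440K over 4 intervals (log2 fold change 0.21 ± 0.10 SE, edgeR adjusted p = 0.275). N440K replicate 2 was the highest, and without it the log2 fold change was 0.11 (edgeR adjusted p = 0.672). Its gene body overlaps that of Zbtb25 at their starts, so the intervals there lie at both genes' starts. The pair of strong Zbtb1 intervals had 46.9 ± 8.05 and 44.9 ± 5.85 CPM in wild type and 50.3 ± 9.41 and 56.4 ± 9.89 CPM in N440K (SD, n = 3), and both overlapped. Zbtb17, whose protein MIZ1 is a partner of MYC, had 48.4 ± 6.60 CPM in wild type against 54.7 ± 4.88 CPM in N440K (SD, n = 3). Zbtb7a, which restrains Notch signalling in blood stem cells, had 139 ± 5.41 and 152 ± 13.6 CPM in the same order. Its interval with the smallest p, in the body near the start, had 24.8, 27.2 and 18.9 CPM in wild type and 26.6, 38.4 and 27.6 CPM in N440K (edgeR adjusted p = 0.401). None of these 3 sums was called.

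Zbtb20, a regulator of plasma cell survival and of the hippocampus, had 167 ± 15.7 CPM in wild type against 165 ± 12.5 CPM in N440K (SD, n = 3), the fifth highest sum. Its interval with the smallest p had 13.0, 15.6 and 11.6 CPM in wild type and 20.5, 17.1 and 14.1 CPM in N440K, with overlap (edgeR adjusted p = 0.592). Zbtb32, which limits T cell activation, had 29.4 ± 2.42 and 28.6 ± 5.36 CPM. Zbtb46, a marker gene of classical dendritic cells, had 63.5, 51.8 and 62.1 CPM in wild type and 50.4, 47.9 and 55.4 CPM in N440K, with overlap (edgeR adjusted p = 0.479). The Zbtb46 interval with the smallest p was weak and higher in N440K. It had 2.48, 5.76 and 6.01 CPM in wild type and 11.6, 5.49 and 10.9 CPM in N440K (log2 fold change 0.92 ± 0.37 SE, edgeR adjusted p = 0.246). The other tested Zbtb46 intervals were lower in N440K, with log2 fold changes of -0.55, -0.68 (edgeR adjusted p = 0.32), -0.61 and -0.15. None of them was called.

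The 3 genes for proteins that bind methylated CpG, Zbtb33 (Kaiso), Zbtb4 and Zbtb38, held 16 tested intervals with a median log2 fold change of 0.00 and 0 called. Zbtb38 had the third highest sum of the members, with 212, 193 and 227 CPM in wild type and 199, 208 and 209 CPM in N440K, which overlapped (edgeR adjusted p = 0.871). Its strongest interval, on the start shown above (chromosome 9, 96719768 to 96719968), had 59.5, 40.8 and 35.2 CPM in wild type and 39.3, 58.0 and 39.6 CPM in N440K. Its interval with the smallest p, inside the body, had 23.5, 21.8 and 21.5 CPM in wild type and 13.3, 17.7 and 17.2 CPM in N440K. The libraries did not overlap there, and the log2 fold change of -0.47 ± 0.22 SE was not called (edgeR adjusted p = 0.342). Zbtb33 had 20.8 ± 1.78 CPM in wild type against 25.9 ± 5.20 CPM in N440K, and Zbtb4 had 30.5 ± 3.68 and 31.4 ± 3.86 CPM (SD, n = 3).

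The 4 genes tied to telomeres, centromeres and genome stability, Zbtb10, Zbtb24, Zbtb40 and Zbtb48, held 13 tested intervals with a median log2 fold change of -0.07 and 0 called. Zbtb10, whose protein binds telomeric repeats, fell as a sum over its 9 deposited intervals. It had 49.98, 52.1 and 50.1 CPM in wild type and 35.2, 35.2 and 38.4 CPM in N440K. The 3 libraries of each genotype lay close together and far from the other 3, a 1.40-fold lower level (log2 fold change -0.48 ± 0.14 SE, edgeR adjusted p = 0.0354). With intervals limited to 20 kb from the gene, the log2 fold change was -0.81 (edgeR adjusted p = 0.0278). The call was lost with DESeq2 (adjusted p = 0.241) and without any 1 of the 6 libraries (edgeR adjusted p from 0.0625 to 0.129), while the log2 fold change was -0.48 with DESeq2 and from -0.53 to -0.46 without 1 library.

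The Zbtb10 difference was spread over weak intervals. At the lower-coordinate end of the gene (chromosome 3, 9249842 to 9251603), 3 neighbouring tested intervals had log2 fold changes of -0.69, -1.002 and -0.77, each with all N440K libraries below all wild type ones. The middle one had 6.20, 6.18 and 6.87 CPM in wild type and 2.21, 5.49 and 2.08 CPM in N440K, from 41 reads in wild type and 17 in N440K libraries (edgeR adjusted p = 0.323). The other tested pair, over 96 kb away, had log2 fold changes of -0.06 and -0.07. The 4 intervals too weak to be tested had 111 reads in all 3 wild type and 68 in all 3 N440K libraries. Read numbers are not scaled to library size, and the wild type libraries together held more counts.

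Zbtb48, also called TZAP, a telomere-binding protein, had 44.6 ± 8.62 CPM in wild type against 53.6 ± 4.59 CPM in N440K (n = 3, SD; edgeR adjusted p = 0.375). Its interval near the higher-coordinate gene end had 17.3, 27.6 and 16.7 CPM in wild type and 26.6, 30.5 and 30.2 CPM in N440K, with overlap. Zbtb40 had 60.0 ± 2.75 and 53.2 ± 10.7 CPM, and Zbtb24, which is needed for DNA methylation at centromeric repeats, had 42.8 ± 1.96 and 40.9 ± 4.86 CPM. Neither differed past the threshold.

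The 4 neural and developmental regulators, Zbtb12, Zbtb14, Zbtb18 and Zbtb45, held 21 tested intervals with a median log2 fold change of 0.08 and 0 called; 0 lower and 2 higher ones had an unadjusted p under 0.05. Zbtb18, a repressor needed in developing cortical neurons, held the strongest member interval, 0.503 kb before its start (chromosome 1, 177441748 to 177441948). It had 66.3, 67.1 and 50.2 CPM in wild type and 70.9, 77.5 and 58.3 CPM in N440K, and the genotypes overlapped (edgeR adjusted p = 0.64). A weaker interval within the body near the start had 19.8, 23.1 and 21.9 CPM in wild type and 23.3, 33.6 and 27.1 CPM in N440K, just without overlap and not called (edgeR adjusted p = 0.454). A further strong one inside the gene (177442994 to 177443194) had 47.7, 44.5 and 45.5 CPM in wild type and 50.4, 55.5 and 49.4 CPM in N440K, also without overlap (log2 fold change 0.18 ± 0.14 SE, edgeR adjusted p = 0.656). As a sum, Zbtb18 had 196 ± 10.3 CPM in wild type against 205 ± 11.1 CPM in N440K (SD, n = 3).

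Zbtb14, a GC-rich-sequence binding repressor, had 88.8, 94.3 and 111 CPM in wild type and 110, 118 and 122 CPM in N440K over 8 intervals (log2 fold change 0.25 ± 0.10 SE, edgeR adjusted p = 0.177). Wild type replicate 3 and N440K replicate 1 were nearly equal, and the others were separated. Its interval near a start (chromosome 17, 69383978 to 69384178) had 14.9, 16.1 and 20.2 CPM in wild type and 23.3, 26.8 and 30.2 CPM in N440K, without overlap (0.64 ± 0.21 SE, edgeR adjusted p = 0.115). That interval also lies in the body of the gene model Gm49894. Zbtb45 had 43.5 ± 2.36 CPM in wild type against 52.1 ± 9.86 CPM in N440K, and Zbtb12 had 49.5 ± 1.61 and 45.4 ± 3.94 CPM (SD, n = 3).

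The other 22 genes held 69 tested intervals, 38 of them within 500 bp of a start, with a median log2 fold change of 0.03 and 0 called. Their unadjusted p was under 0.05 at 6 lower and 5 higher intervals. Zbtb8b fell as a sum over 4 deposited intervals, with 18.8, 19.3 and 20.3 CPM in wild type and 11.03, 11.5 and 12.0 CPM in N440K. The genotypes were well separated, with a 1.69-fold lower level in N440K (log2 fold change -0.76 ± 0.23 SE, edgeR adjusted p = 0.0448). Zbtb8b had the lowest summed signal of the 41 genes, and only 1 of its intervals had enough reads to be tested. That one, 19.1 kb outside the gene, had 7.44, 8.23 and 6.44 CPM in wild type and 4.43, 6.10 and 3.64 CPM in N440K, without overlap (edgeR adjusted p = 0.499). The 3 weaker ones, inside the gene, had 84 reads in all wild type and 40 in all N440K libraries, not scaled to library size. The call was lost with DESeq2 (adjusted p = 0.291) and without any 1 of the 6 libraries (edgeR adjusted p from 0.0851 to 0.139), while the log2 fold change was -0.76 with DESeq2 and from -0.79 to -0.73 without 1 library.

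The neighbours of Zbtb8b on chromosome 4 were not called. Zbtb8a had 39.7 ± 9.51 CPM in wild type against 39.1 ± 2.10 CPM in N440K, and Zbtb8os had 43.4 ± 2.82 and 44.4 ± 2.16 CPM (SD, n = 3). A weak Zbtb8a interval had 5.58, 3.29 and 5.15 CPM in wild type and 8.31, 6.71 and 8.85 CPM in N440K, without overlap (log2 fold change 0.80 ± 0.38 SE, edgeR adjusted p = 0.354). Zbtb7c was the only other gene with all N440K sums below all wild type sums. It had 28.8, 18.5 and 18.2 CPM in wild type and 14.2, 12.7 and 14.97 CPM in N440K (log2 fold change -0.60 ± 0.23 SE, edgeR adjusted p = 0.132), and wild type replicate 1 stood above the rest. Without that library the log2 fold change was -0.39 (edgeR adjusted p = 0.473).

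Several starts in this group had higher N440K values without reaching the threshold. At Zbtb9 (chromosome 17, 26973080 to 26973280, on the start shown above) signal was 44.0, 47.8 and 39.5 CPM in wild type and 56.5, 62.8 and 58.3 CPM in N440K. The genotypes did not overlap (log2 fold change 0.43 ± 0.14 SE, edgeR adjusted p = 0.107). Downstream, 5.10 kb outside Zbtb9, an interval had 18.6, 24.7 and 22.7 CPM in wild type and 16.1, 13.4 and 18.7 CPM in N440K, the other direction, with overlap. As a sum, Zbtb9 had 80.0 ± 3.99 CPM in wild type against 85.2 ± 3.96 CPM in N440K (SD, n = 3).

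At Zbtb34, an interval covered part of the stretch shown above but neither of its Ets words. It had 26.0, 32.5 and 23.6 CPM in wild type and 38.2, 43.3 and 34.4 CPM in N440K (log2 fold change 0.48 ± 0.17 SE, edgeR adjusted p = 0.173). The one just inside the gene had 8.05, 13.6 and 13.7 CPM in wild type and 21.6, 20.1 and 19.8 CPM in N440K (0.75 ± 0.24 SE, edgeR adjusted p = 0.104). Neither overlapped between the genotypes, nor did the Zbtb34 sums, which were 77.9 ± 11.5 and 95.0 ± 7.75 CPM (n = 3, SD; edgeR adjusted p = 0.197). Zbtb37 had an interval 0.432 kb outside its start with 13.6, 13.6 and 14.6 CPM in wild type and 23.3, 21.4 and 22.4 CPM in N440K. Its libraries were tight and apart, and it was not called (0.68 ± 0.22 SE, edgeR adjusted p = 0.116). An interval further out, 1.04 kb from the gene, had a log2 fold change of -0.82 (edgeR adjusted p = 0.37), and the Zbtb37 sums overlapped. The Zbtb22 sums were 31.9 ± 3.89 CPM in wild type against 39.1 ± 2.63 CPM in N440K, without overlap (edgeR adjusted p = 0.336).

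Over all 60 member intervals within 500 bp of a start, the median log2 fold change was 0.06, with 23 negative and 37 positive. Over all 14498 tested intervals so placed it was 0.04, close to the value of the members.

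An interval of Zbtb44, 0.382 kb past the 5′ end of the gene body, went the other way and is named because of its value (chromosome 9, 31030002 to 31030202). It had 36.6, 30.5 and 36.5 CPM in wild type and 24.9, 24.4 and 19.3 CPM in N440K, without overlap (log2 fold change -0.59 ± 0.18 SE, edgeR adjusted p = 0.0975). The strongest Zbtb44 interval, 0.083 kb past the listed start, had 41.9 ± 0.301 and 39.1 ± 9.55 CPM (log2 fold change -0.11). The Zbtb44 sums, 119 ± 6.94 and 107 ± 9.73 CPM (SD, n = 3), overlapped. Zbtb26, whose start is shown above, had a single interval, which covered the BCL11A word there and not the Runx word. It had 58.2, 48.6 and 45.1 CPM in wild type and 55.9, 52.5 and 44.8 CPM in N440K. The Zbtb2 interval with the smallest p had 5.58, 9.47 and 10.3 CPM in wild type and 2.77, 3.66 and 7.29 CPM in N440K (log2 fold change -0.90, edgeR adjusted p = 0.287). That of Zbtb39 had 8.67, 12.4 and 9.44 CPM in wild type and 4.98, 9.76 and 6.77 CPM in N440K (-0.53, edgeR adjusted p = 0.513). That of Zbtb25 had 15.5, 14.8 and 18.9 CPM in wild type and 21.0, 13.4 and 24.98 CPM in N440K (0.28, edgeR adjusted p = 0.661). All 3 overlapped between the genotypes. The sums of the remaining genes overlapped, from 15.8 ± 3.72 CPM for Zbtb3 to 142 ± 11.9 CPM for Zbtb25 in wild type (SD, n = 3).

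**Figure D4:**
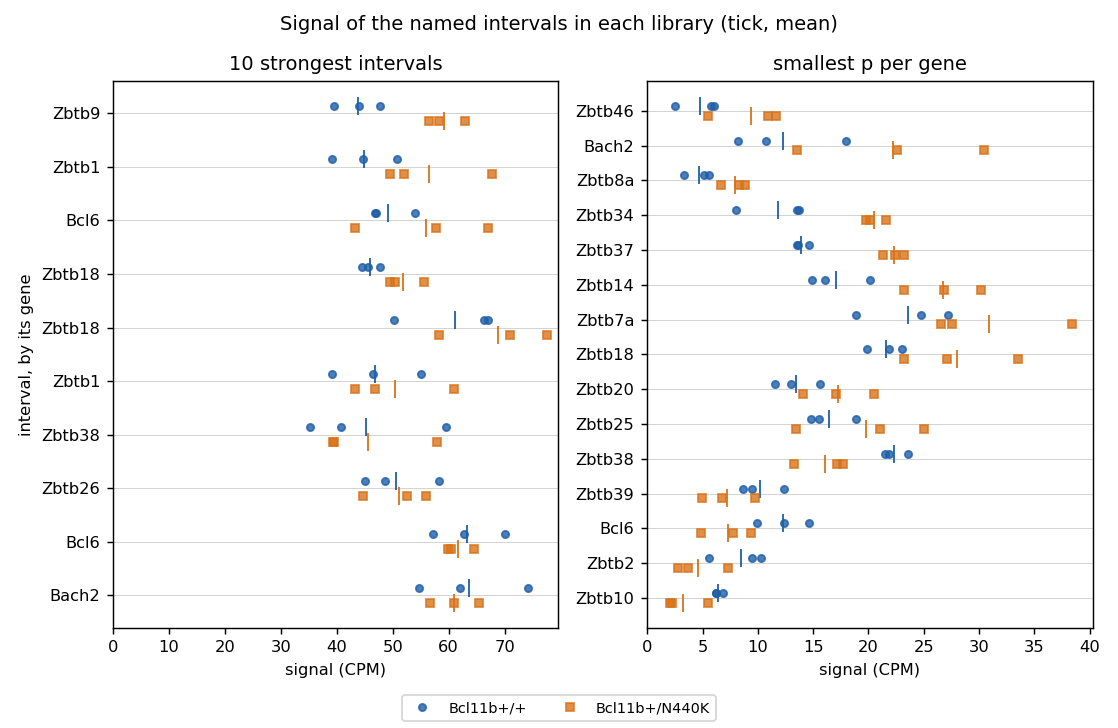
Signal (CPM) per library of the 10 strongest member intervals (left) and of the interval with the smallest p of each of the 15 genes with at least 5 tested intervals (right), wild type as blue circles, N440K as orange squares, ticks as means. Among the strongest, Zbtb9 (39.5 to 47.8 CPM in wild type, 56.5 to 62.8 CPM in N440K) and 1 of the Zbtb18 intervals (44.5 to 47.7 and 49.4 to 55.5 CPM) are separated; no interval shown was called.

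BTB zinc finger genes under other names (Bcl6b, Hic1, Hic2, Patz1, Mynn, Gzf1 and Zfp131) were listed together with Bach1, which is not a zinc finger gene. This list had 56 tested intervals, 0 called, with a median log2 fold change of -0.05. The corepressors, scaffolds and partners of these factors, a list of 18 genes that included Ncor1, Bcor, Hdac3, Cul3, Myc and Mafk, had 216 tested intervals in 17 genes, 0 called, with a median of 0.05. Among the sums, 0 of the 8 genes and 0 of the 17 genes were called. Bcor, a corepressor that binds the BCL6 BTB domain, had 764 ± 54.6 CPM in wild type against 838 ± 29.9 CPM in N440K (SD, n = 3), more than any member and with overlap. Sin3a, a scaffold for histone deacetylases, had 126 ± 12.7 and 148 ± 5.69 CPM, without overlap and not called (edgeR adjusted p = 0.163).

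The 100 kb limit cut few intervals near it. Just inside lay 2 Bach2 intervals, at 89.0 and 89.5 kb, and 2 of Zbtb10, at 96.2 and 96.8 kb. Just outside lay 3 nearest to Bcl6, from 103.4 to 104.4 kb, and 2 nearest to Zbtb18, at 105.0 and 106.2 kb. The strongest of those outside, at 103.4 kb, had 24.3 ± 6.94 CPM in wild type against 19.2 ± 4.41 CPM in N440K (SD, n = 3).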

How the data were processed

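Per the submitters' processing notes, fastp 0.20.0, Bowtie2 2.3.5, SAMtools 1.9, MACS2, bedtools and edgeR 3.38.2 were used with the build mm10; their roles, and whether libraries were pooled for peak calling, are not given in the sources used here. The authors deposited read counts for 93708 intervals of the 6 ChIP libraries, with no normalization. The authors also deposited CPM values for 63098 of them, which gave whole reads for 100% of values (tolerance 0.01).

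Counts were filtered with filterByExpr by genotype, scaled with TMM and tested over all intervals with edgeR's quasi-likelihood test (genotype only, two-sided, Benjamini-Hochberg adjusted p under 0.05). CPM here are relative to the TMM-scaled library size. Gene sums added the counts of all deposited intervals of a gene and were tested in the same way over 14189 genes, filtered again. An interval inside several gene bodies went to the member (6 tested ones), otherwise to a named gene before a Gm model, then to the shortest.

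Intervals described in full were the 10 strongest, the one with the smallest p of each gene with at least 5 tested intervals, and those said to be named because of their value; other values are given for genes by their sums. Other intervals with an unadjusted p under 0.05, or beside these, were chosen after their values were seen. Genes given in full were the called ones, the 5 with the highest sum, and per direction the 5 of smallest p. The members, role groups and lists were chosen with earlier results of these data known. Alternatives were DESeq2, limma voom, other scalings (DESeq2 size factors, loess offsets of span 0.3, total counts), other filters, a replicate block, an adjusted p of 0.01, a limit of 20 kb, and leaving out each library. Counts recovered from the CPM table and intervals in 1 gene body only were alternatives chosen after seeing the data. The fits were tested on simulated data. Software was R 4.3.3 (edgeR 4.0.16, limma 3.58.1, DESeq2 1.42.0) and Python 3.11.15 (numpy 2.4.6, matplotlib 3.10.9, pandas 2.3.3, scipy 1.17.1).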

Additional observations from a re-analysis of the deposited data

How the results depend on the processing

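The number of member intervals called was 0 with DESeq2, limma voom, DESeq2 size factors, total counts, loess offsets, only intervals at or above the median CPM, an adjusted p under 0.01, the 20 kb limit, reads recovered from the CPM table and intervals in 1 gene body only. It was 1 with no low-count filter (the Bach2 interval 74.1 kb outside the gene, log2 fold change 0.94, edgeR adjusted p = 0.0462), and from 0 to 1 when each library was left out. The median log2 fold change of the members stayed between 0.01 and 0.06 under all these settings. Called genes numbered 2 with total counts and with the 20 kb limit, 0 with DESeq2, and from 0 to 0 when each library was left out; the cause was not tested. With the replicate number as a block, 0 intervals and 2 genes were called and the median was 0.04. The block with loess offsets called 1 interval, the Zbtb44 one (log2 fold change -0.65, edgeR adjusted p = 0.0477). The correlations of same-numbered libraries, over deviations from their group means, were -0.004, 0.028 and 0.058, so the numbers were not shown to pair the libraries. Alternatives were run for 39 intervals and 15 sums. Directions reversed only among those near 0, none of them called. Loess offsets, without and with the block, gave -0.054 and -0.063 for the strongest Zbtb26 interval and -0.032 and -0.030 for that of Zbtb38. The Zbtb26 one was -0.010 over intervals at or above the median CPM, that of Bcl6 was 0.0052 with no low-count filter, and the Bach2 sum was -0.0019 within 20 kb. Leaving out 1 library gave -0.17 to 0.075 for the strongest interval of Bach2, -0.094 to 0.039 for Bcl6, -0.031 to 0.22 for Zbtb1 (the first of its pair), -0.051 to 0.12 for Zbtb26 and -0.15 to 0.25 for Zbtb38. It gave -0.023 to 0.15 for the Bach2 sum, -0.059 to 0.066 for Zbtb20 and -0.10 to 0.023 for Zbtb38. Over all, 1 library moved 22 of the 39 intervals and 10 of the 15 sums by over 1.5 times. Weak intervals of a few reads per library limit what could be called.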
